A study of Mus musculus with 18 samples.

Results

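The 10 genes described here code for surface proteins through which myeloid cells costimulate or restrain T cells: Pdcd1lg2 (PD-L2), Cd274 (PD-L1), Cd80, Cd86, Icosl, Cd276 (B7-H3), Vsir (VISTA), Pvr (CD155), Cd40 and Havcr2 (TIM-3). They were chosen by symbol among the 53465 genes of the deposited count table, and each symbol matched 1 row. Cd40 and Havcr2 are receptors rather than ligands and were kept because they act in the same pathways. The cells were sorted from contused spinal cords of adult female C57BL/6J mice of 8 to 10 weeks. Each mouse received 1 µL of PBS, of 100 ng rIL-13 or of 100 ng rIL-4 into the lesion 48 h after the injury, and cells were collected 24 h later. Microglia were gated as CD45 low CD11b+ F4/80+ and macrophages as CD45 high CD11b+ F4/80+. Both populations came from the same 9 mice, so that there were 18 libraries in 6 groups of 3: mice 1 to 3 received PBS, mice 5 to 7 rIL-13 and mice 8 to 10 rIL-4. All groups carried the injury, and no uninjured group was analysed here.

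A T cell needs a signal beside antigen recognition. CD80 and CD86 give it through CD28 and withdraw it through CTLA-4, ICOS ligand acts through ICOS, and PD-L1 and PD-L2 restrain the T cell through PD-1. CD40 receives the T cell's own signal, CD40 ligand, and raises the antigen-presenting capacity of the cell that carries it. IL-4 and IL-13 share a receptor chain and activate the transcription factor STAT6 in myeloid cells.

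The libraries held 35961305 to 45849829 counts each. The 10 microglia markers, among them Tmem119, Fcrls and Sall1, summed to 6553 to 11896 CPM (counts scaled to a common normalised library size) in PBS microglia and to 2943 to 4340 CPM in PBS macrophages. All 10 were higher in microglia than in macrophages with PBS, and 9 of 10 macrophage markers were lower. Marker genes of other cell types were detected in the sorted populations. The 10 fibroblast and pericyte markers summed to 232 to 8176 CPM over the 9 microglia libraries and to 0.307 to 9.87 CPM over the macrophage libraries, and 10 endothelial markers to 1028 to 3244 and 46.5 to 430.0 CPM. The 8176 CPM were reached in the rIL-13 microglia of mouse 6, where the 10 microglia markers summed to 2904 CPM. The microglia markers summed to 2904 to 7628 CPM over the rIL-13 microglia and to 2713 to 4619 CPM over the rIL-4 microglia. The 10 neutrophil markers summed to 263 to 3211 CPM in macrophages, the highest in the rIL-13 macrophages of mouse 6, and to 87.5 to 326 CPM in microglia. Where these transcripts came from was not tested. T cell markers summed to at most 4.53 CPM in any library, with Cd3e at 0 counts in 5 of the 6 groups. In sorted populations measured in bulk, fewer cells of a type and less RNA per cell cannot be told apart.

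Pdcd1lg2, the gene of PD-L2, had the lowest p of the 10 genes in each of the 4 comparisons of a cytokine with PBS. It had no count in any PBS microglia library and reached 24.4 CPM on average with rIL-4. Its neighbour Cd274 rose in macrophages with rIL-4, while Cd86, Icosl and Cd276 fell in the same cells. In macrophages, 5 of the 10 genes passed the threshold of an adjusted p of 0.05 with rIL-4 against PBS, where 14.0% of all 13606 genes tested did, and 2 of 10 passed it with rIL-13, where 4.19% did. In microglia, 1 of 10 passed it with rIL-4, where 2.22% of 15566 genes did, and 1 of 10 with rIL-13, where 0.366% did. All 10 genes passed the filter on low counts in every comparison. The median log2 fold change of the 10 genes was -0.31 in rIL-4 macrophages and -0.27 in rIL-4 microglia, beside 0.02 and -0.06 over all genes tested. With rIL-13 it was -0.15 and -0.07, beside 0.00 in both cell types over all genes. The comparisons with rIL-4 and with rIL-13 share the PBS libraries of their cell type.

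**Figure D1:**
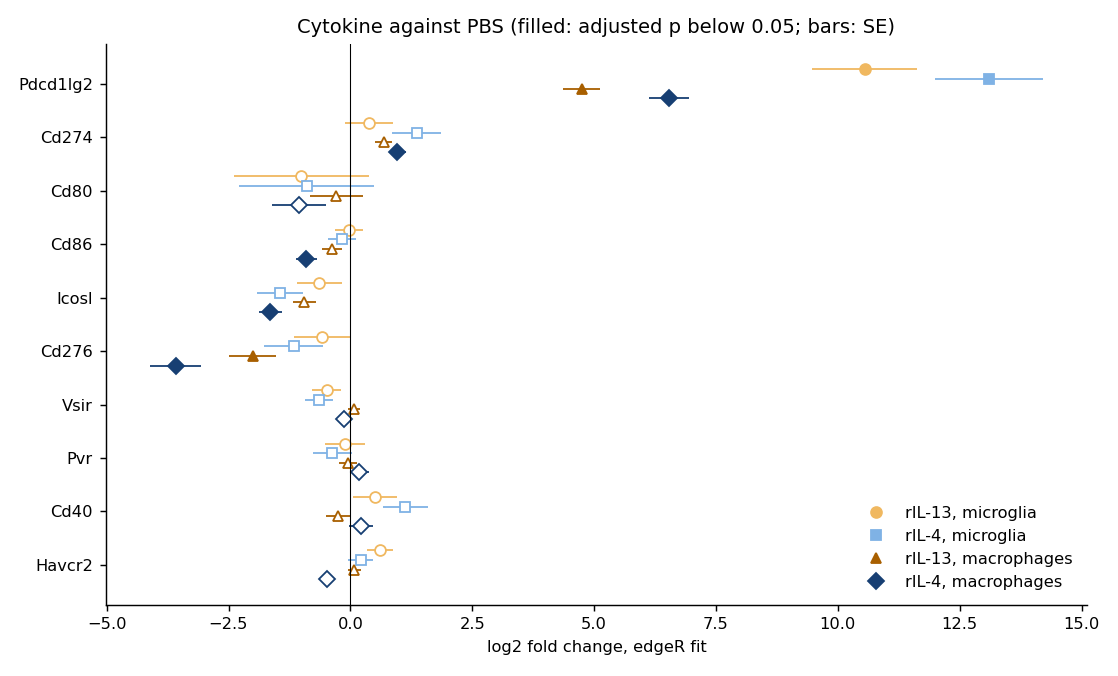
Log2 fold change of each of the 10 genes with rIL-13 or rIL-4 against PBS in microglia and macrophages (horizontal axis; bars are standard errors, 3 libraries per group; filled symbols passed an adjusted p of 0.05). Pdcd1lg2 lies far to the right in all 4 comparisons, its positions in microglia depend on the prior count because the PBS group had 0 counts, and Icosl and Cd276 lie to the left of 0 in all 4.

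Pdcd1lg2 and Cd274 are adjacent on chromosome 19. In GRCm38, Cd274 (ENSMUSG00000016496.7) lies at chr19:29367455-29388095 and Pdcd1lg2 (ENSMUSG00000016498.9) at chr19:29410919-29471161, both on the plus strand and separated by 22823 bases. The 250 bases before each RefSeq start are shown (GRCm38.p6, plus strand, 5′ to 3′), because the results turn on this adjacent pair, and capitals mark a match to TTCNNNNGAA, the spacing that STAT6 dimers prefer. The windows are chr19:29410669-29410918 for Pdcd1lg2 and chr19:29367188-29367437 for Cd274. The RefSeq starts of Cd274, Cd276, Cd80, Havcr2 and Icosl differ from those of the GENCODE gene spans given here, so that some windows do not end where a printed span begins.
Pdcd1lg2: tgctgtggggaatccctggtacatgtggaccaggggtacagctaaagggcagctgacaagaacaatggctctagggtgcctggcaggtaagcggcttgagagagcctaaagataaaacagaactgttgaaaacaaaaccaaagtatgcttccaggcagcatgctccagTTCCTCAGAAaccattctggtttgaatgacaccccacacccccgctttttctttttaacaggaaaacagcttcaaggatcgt
Cd274: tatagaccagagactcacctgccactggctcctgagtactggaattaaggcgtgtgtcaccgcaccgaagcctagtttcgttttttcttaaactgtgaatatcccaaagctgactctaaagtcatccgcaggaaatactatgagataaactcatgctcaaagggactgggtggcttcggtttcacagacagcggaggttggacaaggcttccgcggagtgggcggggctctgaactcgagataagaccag
The match in the Pdcd1lg2 window ends 73 bases before the start. Both strands were searched, and 5.85% of 32851 such windows of mouse genes held TTCNNNNGAA. Windows were at hand for 7 of the 10 genes (not for Cd40, Cd86 and Pvr), and the Pdcd1lg2 window alone of these 7 held it. TTCNNNGAA, the interferon-γ type spacing, was in 7.02% of all windows and in none of the 7, and GAAANNGAAA, the core of the interferon-stimulated element, was in 2.98% and in none of the 7. A match describes letters only and shows no binding.

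In microglia, Pdcd1lg2 had 0, 0 and 0 counts in the PBS libraries, 301, 92 and 185 with rIL-13 and 1105, 1626 and 528 with rIL-4. In CPM these were 7.05, 1.93 and 3.63 with rIL-13 and 27.6, 31.1 and 14.4 with rIL-4. The 3 groups did not overlap, and every rIL-4 library was above every rIL-13 library. Against the limit of 3 counts per PBS library, the rIL-4 mean was at least 353-fold higher. For the rIL-13 mean this bound was 60.8-fold. For the lowest library of the group the bound was 208-fold with rIL-4 and 27.9-fold with rIL-13. The limit of 3 counts covers counting error only. Both comparisons passed edgeR's test, with an adjusted p of 0.00208 for rIL-4 and 0.0114 for rIL-13, and did so with any 1 library left out. The fitted log2 fold changes, 13.10 and 10.55, rest on the prior count and are no measure of size. The 10 macrophage markers summed to 773 to 1010 CPM in PBS microglia, 942 to 1207 with rIL-13 and 1145 to 1975 with rIL-4. In macrophages they summed to 3036 to 3585 CPM with PBS, 6204 to 9462 with rIL-13 and 7279 to 8622 with rIL-4. Most of the sum in microglia was Fn1, at means of 696, 744 and 973 CPM with PBS, rIL-13 and rIL-4. Fn1 itself rose in macrophages with rIL-4, from a mean of 1364 to 5567 CPM. Of the 10 macrophage markers 1, F10, rose in microglia with rIL-4, from a mean of 10.6 to 106 CPM, and 0 passed with rIL-13 in edgeR. The 10 dendritic cell markers summed to 60.7 to 110 CPM in PBS microglia, 37.6 to 68.8 with rIL-13 and 59.3 to 81.4 with rIL-4. Of the 8 tested 1, Ccr7, passed with rIL-4 in edgeR, at 0 counts with PBS and 3.56 to 20.9 CPM with rIL-4, and 0 passed with rIL-13. Ccr7 and Cd209a were at 0 in every PBS library, Cd209a and Clec9a in every rIL-13 library and Clec9a in every rIL-4 library of microglia. The part of either list in the microglial Pdcd1lg2 result was not tested.

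In macrophages, Pdcd1lg2 was low but present with PBS, at 1.07, 1.43 and 1.08 CPM from 38, 47 and 39 counts. It was at 29.9, 42.9 and 23.2 CPM with rIL-13 and at 66.8, 168.0 and 99.1 CPM with rIL-4. Again no group overlapped another. The rise was 92.6-fold with rIL-4 (log2 fold change 6.53 ± 0.41 SE, edgeR adjusted p = 1.38e-05) and 26.8-fold with rIL-13 (4.74 ± 0.38, adjusted p = 1.37e-04). The span of Pdcd1lg2 overlaps at its end that of the antisense gene A930007I19Rik, and without strand reads from the shared stretch cannot be told apart. A930007I19Rik was at 16.5 ± 3.69 CPM (SD, n = 3) in PBS macrophages and 23.9 ± 4.44 with rIL-4, a difference that did not pass the test (edgeR adjusted p = 0.171). In microglia A930007I19Rik was at 1.01 ± 0.344 CPM with PBS, 3.73 ± 2.07 with rIL-13 and 4.95 ± 1.61 with rIL-4, and its log2 fold changes of 1.89 ± 0.70 and 2.32 ± 0.71 did not pass (edgeR adjusted p = 0.548 and 0.149).

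Cd274 was expressed with PBS in both cell types. In macrophages it was at 37.5, 47.5 and 33.3 CPM with PBS, at 53.8, 67.3 and 68.0 with rIL-13 and at 75.4, 89.0 and 65.2 with rIL-4. Both cytokine groups lay above the PBS group and overlapped each other. Cd274 rose 1.94-fold with rIL-4 (log2 fold change 0.96 ± 0.18, edgeR adjusted p = 0.00559), and the call held with any 1 library left out but not in a model of all 18 libraries (adjusted p = 0.186). With rIL-13 the difference of 0.69 ± 0.18 did not pass (edgeR adjusted p = 0.0586). In microglia, Cd274 was at 7.63, 14.0 and 10.7 CPM with PBS, at 10.8, 5.91 and 25.2 with rIL-13 and at 29.9, 18.8 and 33.1 with rIL-4. The rIL-4 libraries lay above the PBS libraries, but the difference of 1.36 ± 0.50 on the log2 scale did not pass (edgeR adjusted p = 0.220), and the rIL-13 libraries spanned the PBS range.

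The balance of both PD-1 ligands was compared within each library as levels per length, that is counts per base of annotated exons. In PBS macrophages the ratio of Pdcd1lg2 to Cd274 was 0.0530, 0.0558 and 0.0602. With rIL-13 it was 1.03, 1.18 and 0.629, and with rIL-4 it was 1.64, 3.49 and 2.81. Pdcd1lg2 thus made up 5.33% ± 0.326 (SD, n = 3) of the summed PD-1 ligand level with PBS, 47.8% ± 8.12 with rIL-13 and 71.2% ± 8.13 with rIL-4. In PBS microglia the ratio was 0, and 3 counts of Pdcd1lg2 would have given at most 0.0178 in any of the 3 libraries. The microglia ratios were 1.20, 0.603 and 0.266 with rIL-13 and 1.71, 3.05 and 0.802 with rIL-4, so that these groups overlapped.

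**Figure D2:**
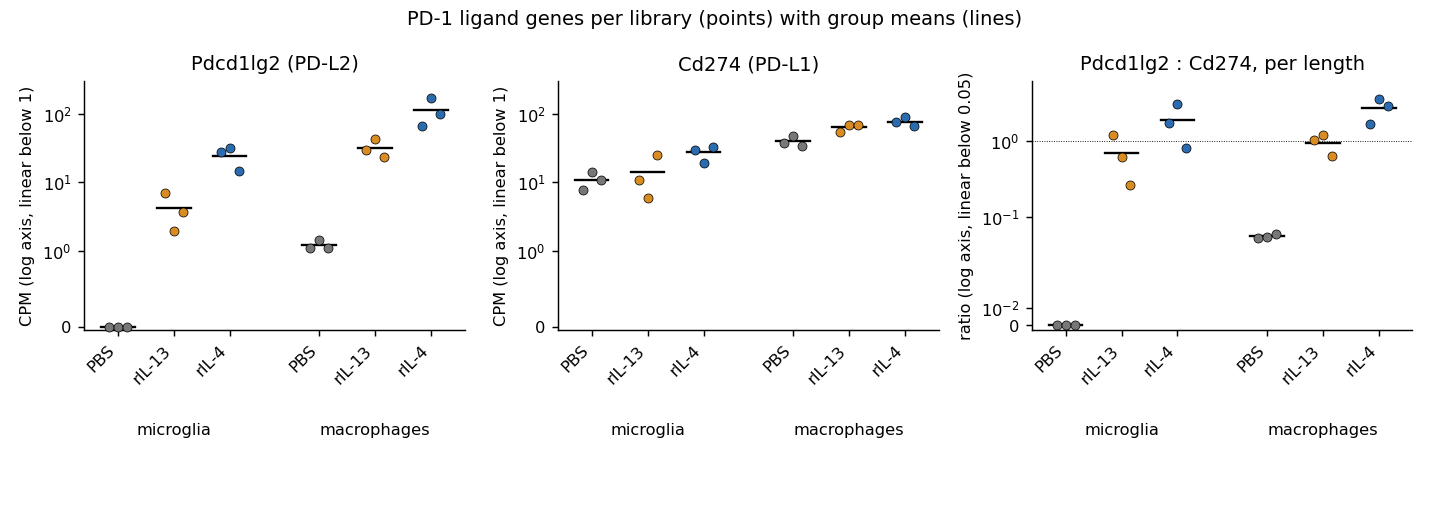
Pdcd1lg2 and Cd274 in CPM and their ratio per length in each of the 18 libraries (points, with group means as lines; logarithmic axes that are linear near 0). Pdcd1lg2 separates PBS, rIL-13 and rIL-4 without overlap in both cell types, whereas Cd274 spans 5.91 to 89.0 CPM; the ratio is above 1 in all 3 rIL-4 macrophage libraries and in 2 of 3 rIL-4 microglia libraries.

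Of the genes around this pair, Jak2 rose in macrophages as well. Jak2, a kinase of cytokine receptors, lies upstream of Cd274 at chr19:29251828-29313080 and went from 19.2 ± 1.66 CPM (SD, n = 3) with PBS to 68.7 ± 22.3 with rIL-13 and 113 ± 30.6 with rIL-4. Its log2 fold changes were 1.84 ± 0.25 (edgeR adjusted p = 0.00369) and 2.56 ± 0.26 (adjusted p = 2.47e-04). Plgrkt, which adjoins Cd274 on the other strand, differed by 0.57 ± 0.14 with rIL-13 (edgeR adjusted p = 0.0477) and by 0.33 ± 0.14 with rIL-4 (adjusted p = 0.150). Ric1, beyond Pdcd1lg2, did not pass with either cytokine (adjusted p = 0.679 with rIL-13 and 0.0954 with rIL-4). Ermp1, the next gene, fell by 0.55 ± 0.13 on the log2 scale with rIL-4 (edgeR adjusted p = 0.0201), and with rIL-13 its log2 fold change was -0.53 ± 0.13 (adjusted p = 0.0506). Rcl1 and Insl6, on the Jak2 side of Cd274, did not pass in macrophages (edgeR adjusted p = 0.0876 and 0.115 with rIL-4, 0.330 and 0.108 with rIL-13). In microglia Jak2 was at 12.1 ± 6.75 CPM with PBS, 28.8 ± 15.1 with rIL-13 and 56.6 ± 13.4 with rIL-4. Its log2 fold changes there, 1.25 ± 0.53 and 2.24 ± 0.55, did not pass (edgeR adjusted p = 0.628 and 0.0774). All genes of this paragraph were taken for their position.

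CD80 and CD86, the ligands shared by CD28 and CTLA-4, went the other way or did not pass. Cd86 (chr16:36603869-36666081, minus strand) was at 67.2, 59.5 and 70.0 CPM in PBS macrophages, at 40.5, 60.4 and 49.4 with rIL-13 and at 30.3, 46.6 and 28.4 with rIL-4. All rIL-4 libraries lay below all PBS libraries. Cd86 fell by 0.90 ± 0.21 on the log2 scale with rIL-4 (edgeR adjusted p = 0.0180). Leaving out 1 library ended that call for 4 of the 6 libraries (PBS mice 1 and 3, rIL-4 mice 8 and 10), with adjusted p between 0.00426 and 0.0756, and so did the model of all 18 libraries (0.0554). With rIL-13 the log2 fold change was -0.38 ± 0.21 (edgeR adjusted p = 0.387). In microglia, Cd86 ranged from 46.6 to 87.5 CPM over the 9 libraries and its groups overlapped.

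Cd80 (chr16:38455561-38496335) was much lower than Cd86 in every library. It was at 5.63, 7.54 and 6.70 CPM in PBS macrophages, at 2.26, 9.93 and 3.98 with rIL-13 and at 2.21, 5.72 and 1.69 with rIL-4. The rIL-4 group overlapped the PBS group at its highest library, and the log2 fold change of -1.05 ± 0.55 did not pass (edgeR adjusted p = 0.251). In microglia, Cd80 was at 1.74, 1.96 and 1.66 CPM with PBS and at 0.425, 0.746 and 1.66 with rIL-4. With rIL-13 it was at 2.48 CPM in mouse 5 and at 0.0838 and 0.0784 CPM, from 4 counts each, in mice 6 and 7. Per length, Cd86 exceeded Cd80 between 6.15- and 18.1-fold over the 9 macrophage libraries and at least 24.0-fold in every microglia library.

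ICOS ligand was lower with cytokine in macrophages. Icosl (ENSMUSG00000000732.9, chr10:78069302-78083913, plus strand) was at 14.7, 11.1 and 8.62 CPM with PBS, at 5.36, 5.51 and 6.95 with rIL-13 and at 3.90, 3.68 and 3.43 with rIL-4. The 3 groups were separate, with rIL-4 lowest. Icosl fell 3.12-fold with rIL-4 (log2 fold change -1.64 ± 0.24, edgeR adjusted p = 0.00168) and kept the call with any 1 library left out. With rIL-13 the log2 fold change of -0.94 ± 0.23 missed the threshold (edgeR adjusted p = 0.0517). In microglia, Icosl was at 7.93, 7.98 and 14.7 CPM with PBS, at 7.61, 3.94 and 8.06 with rIL-13 and at 3.85, 3.96 and 3.34 with rIL-4. The rIL-4 microglia lay below all PBS microglia, at a log2 fold change of -1.44 ± 0.47 that did not pass in edgeR (adjusted p = 0.171) and passed in DESeq2 (adjusted p = 0.0107).

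Cd276, a B7 family member whose receptor is not settled, fell in macrophages with both cytokines. Cd276 (ENSMUSG00000035914.11, chr9:58524298-58555437, minus strand) was at 11.4, 7.66 and 10.6 CPM with PBS, at 2.26, 1.96 and 3.11 with rIL-13 and at 1.48, 0.705 and 0.256 with rIL-4. No group overlapped another. It fell 12.0-fold with rIL-4 (log2 fold change -3.59 ± 0.52, edgeR adjusted p = 0.00168) and 4.02-fold with rIL-13 (-2.01 ± 0.48, adjusted p = 0.0466). Without rIL-4 mouse 8 the log2 fold change was -4.35. The rIL-13 call was lost whichever of the 6 libraries was left out (adjusted p 0.0886 to 0.146). In microglia, Cd276 was at 20.8, 13.3 and 26.9 CPM with PBS, at 14.6, 9.96 and 16.2 with rIL-13 and at 3.00, 17.9 and 5.71 with rIL-4. These groups overlapped and neither comparison passed (edgeR adjusted p = 0.381 for rIL-4 and a value near 1 for rIL-13).

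Microglia markers moved with Cd276 in the macrophage libraries. Their sum was 2943 to 4340 CPM with PBS, 1206 to 2438 with rIL-13 and 498 to 877 with rIL-4, and 10 of 10 markers fell with rIL-4 and 3 of 10 with rIL-13. In microglia 4 of 10 fell with rIL-4. Cd276 per 1000 CPM of these markers was 2.44 to 2.67 CPM in PBS macrophages, 0.926 to 2.12 with rIL-13 and 0.348 to 1.68 with rIL-4. It was 1.75 to 2.48 CPM in PBS microglia, 1.91 to 3.43 with rIL-13 and 0.649 to 6.60 with rIL-4, so that the 3 microglia groups overlapped. The fibroblast and pericyte markers, at 5.14 to 8.79 CPM in PBS macrophages, were at 4.28 to 9.87 CPM in rIL-13 macrophages and 0.307 to 1.41 CPM in rIL-4 macrophages. The part of these markers in the Cd276 result was not tested.

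**Figure D3:**
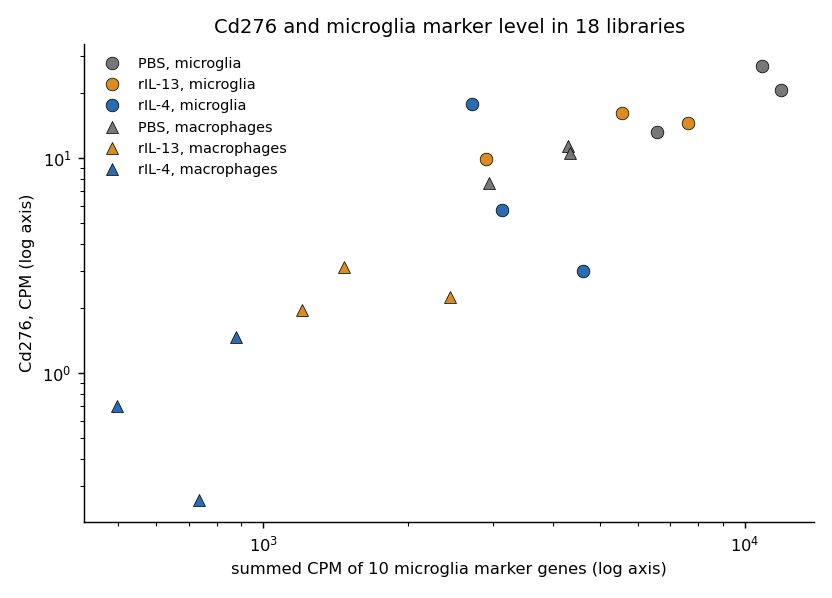
Cd276 (vertical axis, CPM) against the summed level of 10 microglia marker genes (horizontal axis, CPM) in the 18 libraries, both on log axes, with circles for microglia, triangles for macrophages and colours for the treatment. The rIL-4 macrophages are lowest on both axes, at 0.256 to 1.48 CPM of Cd276, and the library with most Cd276, at 26.9 CPM, is a PBS microglia library.

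Vsir, an inhibitory B7-like protein of myeloid cells, and Pvr, the ligand of CD226 and TIGIT, passed no cytokine comparison. Vsir (chr10:60346851-60372684, plus strand, overlapping Cdh23 of the other strand) was at 528 to 556 CPM in PBS macrophages, 553 to 584 with rIL-13 and 437 to 528 with rIL-4. In microglia it was at 300 to 458 CPM with PBS, 165 to 371 with rIL-13 and 208 to 277 with rIL-4, and the rIL-4 difference of -0.64 ± 0.29 on the log2 scale did not pass (edgeR adjusted p = 0.316). Pvr (chr7:19903578-19921160, minus strand) ranged from 14.4 to 26.2 CPM over the 9 macrophage libraries and from 4.92 to 13.9 CPM over the 9 microglia libraries. Its 4 log2 fold changes against PBS lay between -0.37 and 0.18.

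Both receptors were expressed in all groups. Cd40 (chr2:165055627-165072948, plus strand) was at 12.0, 9.90 and 3.77 CPM in PBS microglia, at 15.0, 7.69 and 13.6 with rIL-13 and at 21.2, 20.2 and 13.6 with rIL-4. All rIL-4 microglia lay above all PBS microglia, at a log2 fold change of 1.13 ± 0.46 that did not pass (edgeR adjusted p = 0.260). In macrophages Cd40 lay between 6.36 and 13.1 CPM, and neither comparison with PBS passed. Havcr2 (chr11:46454935-46481255, plus strand), the receptor TIM-3 that also marks microglia, was at 163, 151 and 168 CPM in PBS macrophages, at 161, 177 and 171 with rIL-13 and at 116, 135 and 95.4 with rIL-4. The rIL-4 libraries lay below all others, and the log2 fold change of -0.48 ± 0.14 was just short of the threshold (edgeR adjusted p = 0.0507). In microglia, Havcr2 was at 119 to 181 CPM with PBS, 154 to 283 with rIL-13 and 145 to 216 with rIL-4.

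**Figure D4:**
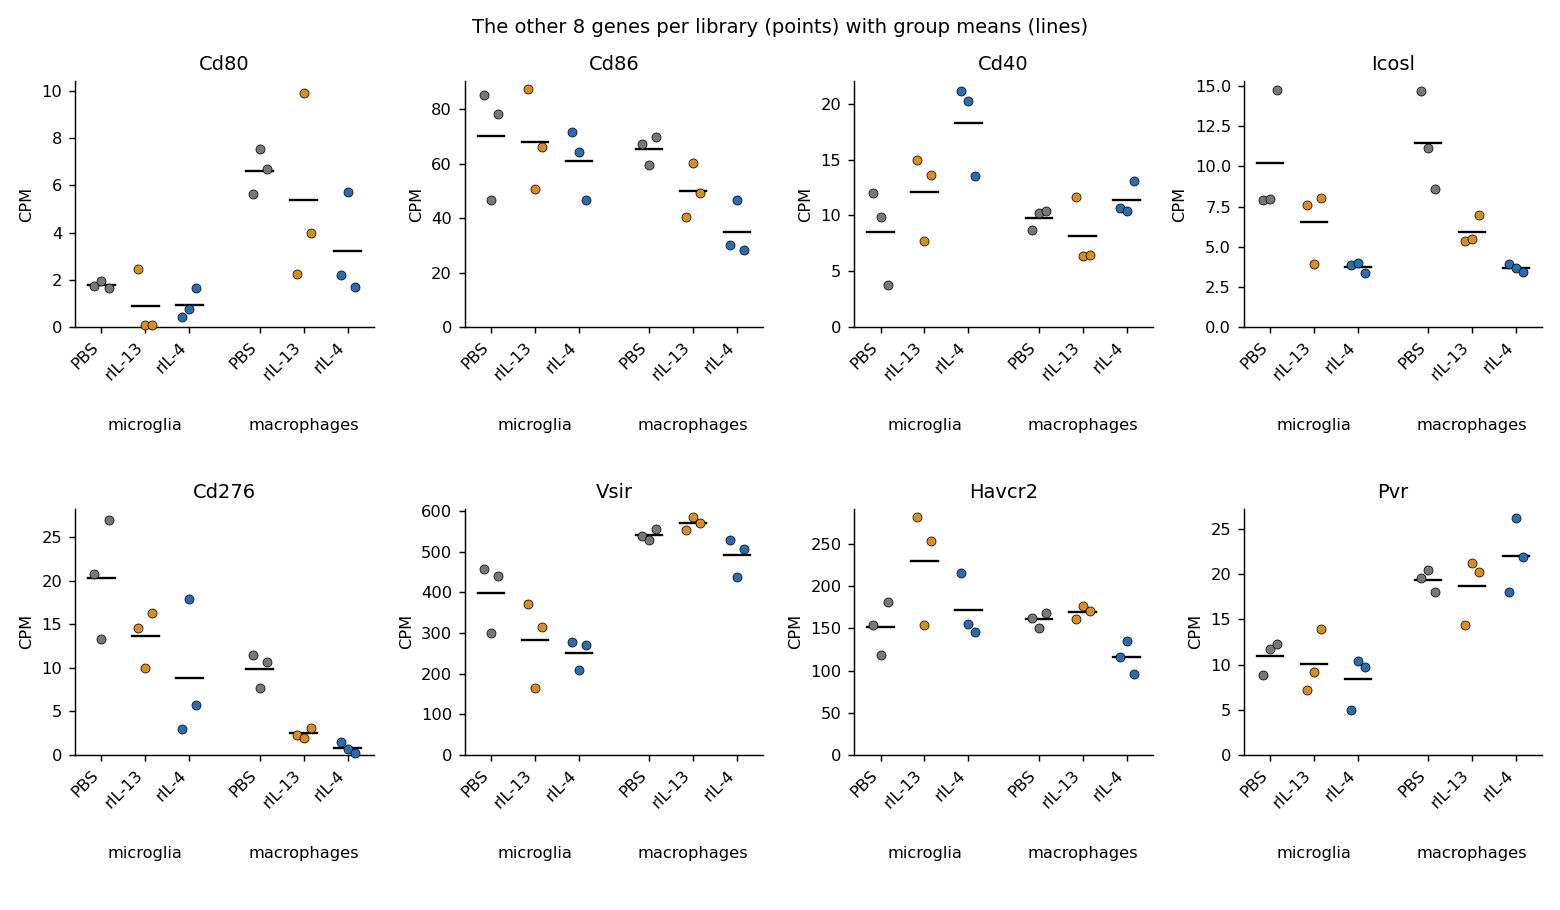
Level in CPM (vertical axes, from 0) of the other 8 genes in each library (points) with group means (lines), by treatment and cell type. In macrophages, Icosl and Cd276 separate all 3 treatments and Cd86, Cd40, Vsir and Havcr2 separate rIL-4 from PBS. The margins are narrow for Cd40 (PBS up to 10.37 CPM, rIL-4 from 10.41) and Vsir (PBS from 528.3 CPM, rIL-4 up to 527.8). In microglia the rIL-4 and PBS points of Icosl, Cd40 and Vsir do not overlap. The share of all genes separated in this way was not computed.

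The cytokines were also compared directly, and calls among the 10 genes depended on the tool. In macrophages 0 of 10 passed with edgeR, where 0.250% of all genes did, 5 of 10 had an unadjusted p under 0.05 beside 11.1% of all genes, and 3 passed in DESeq2 beside 2.63%. In microglia 0 of 10 passed, where 0.0385% of all genes did, 1 of 10 had an unadjusted p under 0.05 beside 11.4% of all genes, and 1 passed in DESeq2 beside 4.79%. Pdcd1lg2 had the lowest p in both. In macrophages its rIL-4 level was 3.46 times the rIL-13 level (log2 difference 1.79 ± 0.32, edgeR adjusted p = 0.0540) and in microglia 5.87 times (2.55 ± 0.59, adjusted p = 0.241). Over the alternatives and left-out libraries these adjusted p ran from 1.77e-05 to 0.196 in macrophages and from 0.00114 to 0.412 in microglia, the lowest from DESeq2. The other log2 differences in macrophages included -1.58 ± 0.50 for Cd276 (edgeR adjusted p = 0.249), -0.70 ± 0.24 for Icosl (0.289) and -0.56 ± 0.14 for Havcr2 (0.159).

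Both PD-1 ligands were lower in microglia than in macrophages of the same treatment. With PBS, 6 of the 10 genes passed, where 40.9% of 14715 genes did. In a model of all 18 libraries only Pdcd1lg2 and Cd274 kept this call, and the share of all genes called by that model is not given here. With rIL-4, 5 of 10 passed, where 23.4% of genes did, and with rIL-13 4 of 10, where 26.7% did. The medians of the 10 genes were -0.35, -0.45 and -0.36 on the log2 scale, beside 0.04, -0.03 and 0.04 over all genes. The log2 difference of Cd274, microglia minus macrophages, was -1.90 ± 0.25 with PBS (edgeR adjusted p = 4.32e-04), -1.46 ± 0.25 with rIL-4 (0.00511) and -2.16 ± 0.49 with rIL-13 (0.0159, and 0.0929 without mouse 5). Pdcd1lg2 was 4.48-fold lower in microglia with rIL-4 (edgeR adjusted p = 0.00778) and 7.51-fold lower with rIL-13 (0.00508, and 0.0667 without mouse 7). The latter log2 difference of -2.91 was -3.56 without mouse 5 and -2.32 without mouse 6, and that of Cd274 with rIL-13 was -2.83 without mouse 7. With PBS, the macrophage level of Pdcd1lg2 was at least 17.3-fold higher than the limit of 3 counts in microglia (edgeR adjusted p = 0.00131).

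For Cd276 the difference was positive, at 1.00 ± 0.30 with PBS (edgeR adjusted p = 0.0247), 3.47 ± 0.93 with rIL-4 (0.0308) and 2.49 ± 0.38 with rIL-13 (0.00317). The rIL-4 difference was 4.69 without mouse 8 and 2.36 without mouse 9. With the mouse as a block, the rIL-4 difference of Cd276 had an adjusted p of 0.0665 and Cd86 passed instead, at 0.83 and an adjusted p of 0.0406. For Vsir it was -0.47 ± 0.16, -0.94 ± 0.17 and -0.99 ± 0.29 with PBS, rIL-4 and rIL-13 (edgeR adjusted p = 0.0456, 0.00602 and 0.0388). For Pvr it was -0.85 ± 0.20 with PBS (edgeR adjusted p = 0.00850) and -1.37 ± 0.35 with rIL-4 (0.0263). Cd80 was 3.78-fold lower with PBS (edgeR adjusted p = 0.00161). Several of these calls were lost with 1 mouse left out: Vsir with PBS whichever mouse was left out (adjusted p 0.0694 to 0.135), with rIL-4 without mouse 10 (0.0657) and with rIL-13 without mouse 5 or 7 (up to 0.194); Pvr with rIL-4 whichever mouse was left out (0.0539 to 0.116); and Cd276 with PBS without mouse 1 or 3, with rIL-4 without mouse 9 or 10 and with rIL-13 without mouse 7, with adjusted p up to 0.161, 0.220 and 0.0513. In the model of all 18 libraries the PBS calls of Cd80 (adjusted p = 0.194), Cd276 (0.210), Vsir (0.178) and Pvr (0.0558) were lost. The fibroblast and endothelial markers given above were higher in the microglia libraries, and their part in these differences was not tested.

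**Figure D5:**
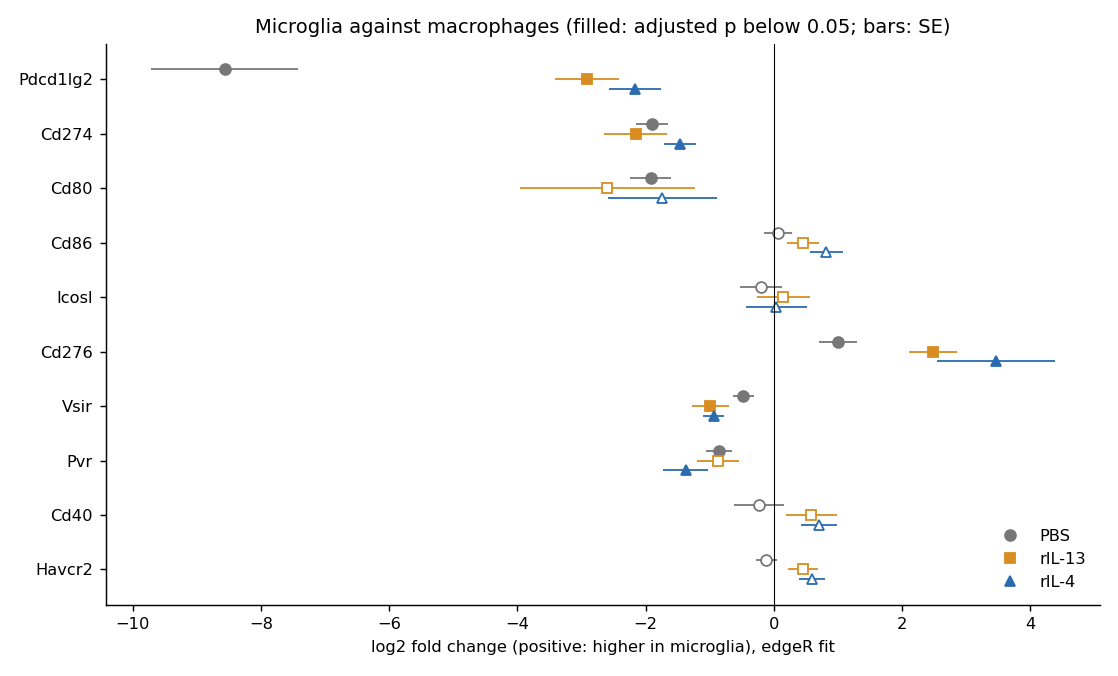
Log2 fold change of each gene in microglia against macrophages of the same treatment (horizontal axis, positive values are higher in microglia; bars are standard errors, 3 libraries per group; filled symbols passed an adjusted p of 0.05). Pdcd1lg2, Cd274 and Vsir are filled on the left and Cd276 on the right in all 3 treatments, and the PBS value of Pdcd1lg2 depends on the prior count.

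Whether microglia and macrophages responded differently was tested as an interaction. With edgeR, 0 of 10 genes passed for rIL-4, where 0.992% of 16535 genes did, with 3 at an unadjusted p under 0.05 beside 12.4% of all genes and 1, Pdcd1lg2, called by DESeq2 beside 4.68%. For rIL-13 0 of 10 passed, where 0.0242% of genes did, with 1 at an unadjusted p under 0.05 beside 5.83% and 1, again Pdcd1lg2, called by DESeq2 beside 1.10%. For rIL-4 the adjusted p of Pdcd1lg2 was 0.0590 with edgeR. Because PBS microglia had no count, the size of this difference is not defined. The next lowest p was that of Cd276, whose response to rIL-4 was 2.40 ± 0.83 higher in microglia on the log2 scale (edgeR adjusted p = 0.214). This value depended on single mice, and it passed with mouse 8 left out. With rIL-4, Cd276 ranged from 3.00 to 17.9 CPM in microglia and from 0.256 to 1.48 CPM in macrophages.

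Per length, Vsir and Havcr2 were the most abundant of the 10 genes in 5 of the 6 groups. In PBS microglia, the means on a scale like TPM were 231 ± 43.6 (SD, n = 3) for Vsir and 162 ± 30.3 for Havcr2, followed by 55.5 ± 15.0 for Cd86. Vsir and Havcr2 overlapped in range there, and Cd86 did not overlap either. Cd276, Cd274, Cd40, Icosl and Pvr followed between 16.1 and 5.22, each overlapping its neighbour in the order, then Cd80 at 1.41 and Pdcd1lg2 at 0. In PBS macrophages the order began with Vsir at 262 ± 17.1, Havcr2 at 143 ± 13.6, Cd86 at 43.5 ± 5.31 and Cd274 at 26.3 ± 4.02, without overlap, and ended with Pdcd1lg2 at 1.47 ± 0.185. With rIL-4, Pdcd1lg2 was second among the 10 in macrophages, at 128 ± 58.9, overlapping Havcr2 at 97.4 ± 21.6, and followed Havcr2, Vsir and Cd86 in microglia at 30.5 ± 14.7, overlapping Cd86 and Cd274.

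Of 13 genes of proteins that these ligands and receptors bind, 6 were tested in either cell type's cytokine comparisons. Cd40lg, Cd96, Ctla4, Cd226, Icos and Tigit had at most 52 counts in any library. Pdcd1, which codes for PD-1 itself, was at 7.08 to 12.0 CPM in PBS microglia and 1.22 to 4.92 CPM in PBS macrophages. In macrophages Pdcd1 fell with rIL-4 (log2 fold change -5.25 ± 0.87, edgeR adjusted p = 0.00329), to at most 6 counts per library, and with rIL-13 (-3.24 ± 0.76, adjusted p = 0.0430). The same libraries had the lower microglia marker sums given above, whose part in this was not tested. Selplg, which codes for a glycoprotein that binds VISTA at acidic pH, fell by 0.76 ± 0.14 with rIL-4 in macrophages (edgeR adjusted p = 0.00621). Of the 6 genes tested, 2 were lower and 0 higher there, where 14.0% of all genes were called, with a median of -0.49 beside 0.02 over all genes. In microglia 0 were called with edgeR, where 2.22% of all genes were with rIL-4 and 0.366% with rIL-13, and 2 genes had an unadjusted p under 0.05 with rIL-4 and 0 with rIL-13, beside 16.4% and 7.76% of all genes. Lgals9, a ligand of TIM-3, was at 285 to 448 CPM over all 18 libraries.

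Among 18 other costimulatory and inhibitory ligands, 10 were tested in macrophages, of which 1 rose and 4 fell with rIL-4, where 14.0% of all genes were called, with a median of -0.68 beside 0.02 over all genes. Cd24a, which binds Siglecs, fell by 1.64 ± 0.16 on the log2 scale with rIL-4 (edgeR adjusted p = 1.64e-04) and by 1.32 ± 0.16 with rIL-13 (0.00160). Neutrophil markers summed to 1024 to 1665 CPM in PBS macrophages, 556 to 3211 with rIL-13 and 263 to 919 with rIL-4, and 3 of 10 (Ltf, Ngp and Camp) fell with rIL-4. Their part in the Cd24a result was not tested. Icam1, the ligand of LFA-1, fell by 1.00 ± 0.15 with rIL-4 (edgeR adjusted p = 0.00170). Btnl2, a butyrophilin-like inhibitor, rose by 2.56 ± 0.72 (0.0409), from a mean of 0.571 CPM. Ildr2, 1 of the 4 that fell, was at 0.311 to 0.584 CPM with PBS, at no more than 1 count per library with rIL-13 and at 0 with rIL-4. Both differences were under the threshold (edgeR adjusted p = 0.0484 and 0.00719). Only the PBS libraries carried Ildr2 past the count filter, so it could be called in no direction but lower. Of the 11 tested in microglia, 0 passed with edgeR for either cytokine, where 2.22% and 0.366% of all genes did. At an unadjusted p under 0.05 there were 0 for rIL-4, beside 16.4% of all genes, and 1 for rIL-13, beside 7.76%.

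Of 13 genes that signal below these receptors or stabilise the ligands, all were tested. In macrophages 3 rose and 2 fell with rIL-4, where 14.0% of all genes were called, and 3 rose with rIL-13, where 4.19% were. Beside Jak2, Irf4, a transcription factor induced by IL-4 in macrophages, rose by 2.52 ± 0.32 on the log2 scale with rIL-4 (edgeR adjusted p = 8.18e-04) and by 1.46 ± 0.31 with rIL-13 (0.0301). Traf5, an adaptor of CD40, rose by 1.24 ± 0.21 (0.00358) and 0.96 ± 0.21 (0.0321). In microglia 0 of the 13 passed with edgeR for rIL-4, where 2.22% of all genes did, or for rIL-13, where 0.366% did. For each cytokine 3 had an unadjusted p under 0.05, beside 16.4% and 7.76% of all genes. Between cell types with PBS, 1 of the 13 was higher and 3 were lower in microglia, where 40.9% of all genes were called. With rIL-4, 0 were higher and 3 lower, where 23.4% were called, and with rIL-13 1 and 1, where 26.7% were. Stat6, the factor activated by both cytokines, was among the lower each time, with log2 differences of -0.94 ± 0.13 with PBS (edgeR adjusted p = 4.64e-04), -0.72 ± 0.17 with rIL-4 (0.0183) and -0.82 ± 0.19 with rIL-13 (0.0167).

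The genes whose 6 group means followed each member most closely were found as the smallest root mean square difference of centred log2 CPM among 16535 genes, as a description over 6 groups. For Pdcd1lg2 these were Ear2 (0.59), Chil3 (0.59) and Atp6v0d2 (0.66), the first an eosinophil-associated ribonuclease of mouse myeloid cells and the second the chitinase-like protein Ym1. For Cd274 they were Rilpl2 (0.16), Ero1l (0.18) and Cd300lb (0.18). For Cd276 they were Tmem119 (0.25) and Fcrls (0.33), both on the list of microglia markers, and Ckb (0.35). For Cd86 the closest was Svbp (0.09) and for Icosl it was Prag1 (0.15).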

How the data were processed

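Both sorted populations of 9 mice gave 18 SMART-seq2 libraries. Per the labels and the study's methods, the authors aligned the reads with STAR 2.5.3a to GRCm38 and deposited RSEM 1.3.0 expected counts per gene, as whole numbers, not normalised; the annotation release is not given in the sources used here. RSEM divides reads that match several genes, and the libraries carry no strand or molecular identifiers. Counts were tested with edgeR 4.0.16 (R 4.3.3) quasi-likelihood fits after TMM normalisation and filterByExpr: the 9 libraries of a cell type for the cytokine comparisons, the 6 of a treatment for cell types and all 18 in 6 groups for the interactions. P-values were adjusted by Benjamini-Hochberg over all genes tested, at a threshold of 0.05. The SE of each log2 fold change was computed as its size over the root of F. CPM use the TMM factors of all 18 libraries. Levels per length divide counts by the union of GENCODE M21 exons (53360 of 53465 genes matched) and are scaled to a fixed sum, as TPM are. Group floors were 3 counts per library. The 10 genes and the lists were chosen with earlier results of these data known. All 10 genes were named in every comparison, from the other lists at most 4 called genes with the lowest p, and the 3 nearest genes by pattern; not every gene that this rule could name is reported here. The mouse pairs microglia with macrophages per the labels. Deviations of paired libraries from their group means correlated at 0.0177 to 0.0935. No pair of libraries in a group was a duplicate by a chi-square test of counts. Fits were tested on simulated data. Alternatives were DESeq2 1.42.0, its size factors in edgeR, other count filters, 1 model of all libraries, the mouse block and leaving out each library. Library totals were 35961305 to 45849829 counts, and reads of PCR copies were not separated. P-values set each difference against a spread pooled over all groups of the fit and moderated across genes. Without the mouse block, the cell type and interaction fits took both libraries of a mouse as independent.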

Additional observations from a re-analysis of the deposited data

How the results depend on the processing

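The counts of the 10 genes called depended on the fit as follows. Of the alternative fits, only DESeq2 has its share of all genes called given here. Counts from the other alternatives cannot be set against all genes and show only how the calls moved. With DESeq2, 2 genes were called for rIL-4 against PBS in microglia, 4 for rIL-13 against PBS in macrophages, 1 and 3 for rIL-4 against rIL-13 in microglia and macrophages, 8 for microglia against macrophages with rIL-4, and 1 for each interaction. DESeq2 called 9.53%, 7.55%, 4.79%, 2.63%, 29.0%, 4.68% (rIL-4 interaction) and 1.10% (rIL-13 interaction) of the genes with an adjusted p in these comparisons, in the order given. With all 18 libraries in 1 model, 2 were called for rIL-4 against PBS in microglia, 1 for rIL-4 against rIL-13 in microglia, 3 and 1 for rIL-4 and rIL-13 against PBS in macrophages, where Cd274 (adjusted p = 0.186) and Cd86 (0.0554) lost the rIL-4 call, and 2 for microglia against macrophages with PBS. With all genes with any count, 4 were called for rIL-13 against PBS in macrophages, 1 for rIL-4 against rIL-13 in macrophages and 1 for the rIL-4 interaction, and DESeq2's size factors gave 1 for that interaction. Requiring 10 counts in every library removed Pdcd1lg2 from the microglia comparisons and left 0 calls for both cytokines against PBS. With 1 library left out, 4 to 6 genes were called for rIL-4 and 1 to 1 for rIL-13 against PBS in macrophages, 4 to 5 for microglia against macrophages with PBS, 2 to 4 for microglia against macrophages with rIL-4 and 1 to 5 with rIL-13, and 0 to 1 for the rIL-4 interaction, Cd276 being the call without mouse 8. The other counts did not move. With the mouse as a replicate block, the paired comparisons of both cell types called 6 genes with PBS, 5 with rIL-4 and 4 with rIL-13, and 0 in each interaction. The mean log2 ratio of Pdcd1lg2 to Cd274 in rIL-13 macrophages, -0.13, ran from -0.32 without mouse 6 to 0.14 without mouse 7, and PBS microglia gave no log2 ratio because the counts were 0. The cause of these shifts was not tested, other than that the stricter filter drops a gene without counts. Over all genes, DESeq2 called 1479 rather than 345 for rIL-4 in microglia and 1112 rather than 570 for rIL-13 in macrophages. Of the 110 log2 fold changes of the 10 genes, 47 were followed one by one and kept their sign throughout, and 21 of the other 63 changed sign with 1 library left out.

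With 3 mice per group, several differences whose groups did not overlap, such as those of Cd40 in microglia and Havcr2 in macrophages with rIL-4, did not pass after adjustment. Expression was measured as RNA and in cells that survived dissociation and sorting, and the surface proteins were not measured. The groups come from 1 time point and 1 dose of each cytokine.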
